A study of Mus musculus with 6 samples.

Results

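The microRNA processing machinery described here comprised 9 genes, Drosha, Dgcr8, Xpo5, Dicer1, Tarbp2 and Ago1 to Ago4, chosen by gene symbol from the 22081 genes of the deposited expression table. All 9 had a row and passed the filter on low values. They were measured in freshly sorted MuSCs (muscle stem cells, from which skeletal muscle regenerates), and the comparison asked whether transcripts of the machinery differed between MuSCs of control mice and of Taf4asKO mice. RNA-seq of total RNA was made from 3 control and 3 Taf4asKO libraries. All mice were on the C57BL/6 background, and the study's methods describe adult animals of both sexes. Taf4asKO mice carried floxed Taf4 alleles (Taf4a flox/flox in the study's older name) and a tamoxifen-inducible Cre recombinase (Pax7-CreERT) under the promoter of Pax7, the transcription factor that marks MuSCs, and received tamoxifen. The controls have the genotype Control and titles with WT. The study's methods describe controls as littermates that also carried the floxed alleles, with or without the Cre, and list wild type C57BL/6 mice separately, so which of these the control libraries were is not given. A Pax7-zsGreen reporter could be present in either genotype. MuSCs were sorted as SCA1-, CD45- and CD31- cells positive for Integrin-a7 or for the green reporter, and the sources do not say which sorting marker was used for each library. The labels do not say whether a library came from 1 animal or from a pool, so the p-values measure the spread between these libraries.

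MicroRNAs are made in steps. The Microprocessor, formed by the RNase III enzyme DROSHA and the RNA-binding protein DGCR8, cuts a hairpin out of the primary transcript in the nucleus, and Exportin-5, encoded by Xpo5, carries the hairpin to the cytoplasm. DICER1, helped by TRBP (Tarbp2), removes the loop, and an Argonaute protein keeps one strand and uses its seed, the bases near its 5′ end, to find target mRNAs. In MuSCs, loss of Dicer1 is known to disturb quiescence, the resting state of the cells.

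Of the 9 members, Dicer1 rose and Ago4 fell in the libraries labelled Taf4asKO. The other 7, including both Microprocessor genes and the exporter, did not pass the threshold. A gene passed with an adjusted p under 0.05 and a change of at least 1.3-fold, by limma on log2(normalized count + 1) with Benjamini-Hochberg adjustment over the 18562 genes tested. In that fit 12.6% of all tested genes passed, 5.93% higher and 6.71% lower in Taf4asKO, and 1 member of 9 in each direction is not read as a difference from that background. The median log2 fold change of the members was -0.037, against 0.004 over all tested genes. The groups did not overlap for 4 members (Dicer1, Ago1, Ago3 and Ago4), and for 33.0% of all tested genes.

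**Figure D1:**
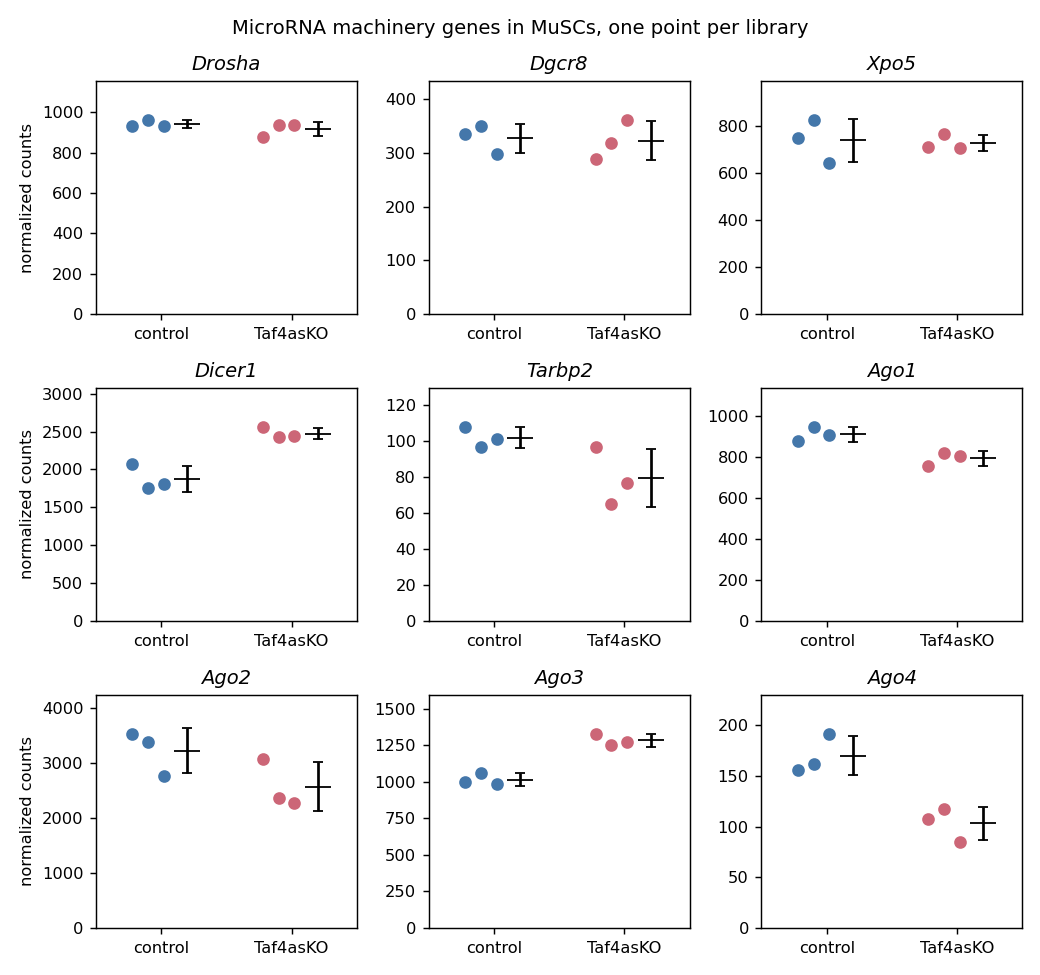
Normalized counts of the 9 members, 1 panel per gene with a y axis from 0; each point is a library (blue, control; red, Taf4asKO), and the black mark and bar beside the points are the mean and SD of 3 libraries. The Taf4asKO points of Dicer1 and Ago3 lie above all control points, those of Ago1 and Ago4 lie below them, and the points of Drosha, Dgcr8, Xpo5, Tarbp2 and Ago2 share a range.

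Facts of the libraries set limits on these values. Total normalized counts were 12338676 to 14551732 per library. Taf4, the targeted gene, stood at 613, 534 and 478 in control and 631, 565 and 574 in Taf4asKO (log2 fold change 0.13 ± 0.12 SE, adjusted p = 0.524 by limma). The Taf4 value did not separate the groups, so it does not check the labels. It sums the whole gene, of which only some exons were floxed, and single exons were not analysed here. Pax7 was abundant in every library, at 12082, 12244 and 13007 in control and, without overlap, at 10669, 10363 and 11164 in Taf4asKO (log2 fold change -0.21 ± 0.09, adjusted p = 0.161 by limma). Of 10 MuSC markers 3 rose and 3 fell. Of 6 Schwann cell markers 5 rose and Ngfr fell, with a summed level of 3079 to 5458 in control and 6311 to 7377 in Taf4asKO. Of 10 markers of fibro-adipogenic progenitors, the connective tissue cells of muscle, 7 were higher and none of these passed. Col3a1, Dpt and Cd34, the last also known from quiescent MuSCs, fell. The sum of the list was 56796 to 83608 in control and 34701 to 57344 in Taf4asKO. Col3a1 alone stood at 46225, 47112 and 47700 in control and 13082, 17573 and 16995 in Taf4asKO. The sum therefore mostly followed Col3a1 and does not give the direction of the other markers. Of 7 endothelial markers all were higher and none passed (959 to 1458 and 1586 to 2098 summed). Smooth muscle and pericyte markers rose for 2 of 6 (25249 to 29944 and 25664 to 30251 summed). No marker passed among 4 immune markers with a row, 4 tenocyte, 8 myofibre and 5 erythroid markers. With the replicate block in the limma fit, 18.1% of all tested genes passed. Beside that share, 9 of 10 fibro-adipogenic markers passed, of which Col3a1, Dpt and Cd34 were lower and the rest higher. So did 4 of 7 endothelial, 4 of 6 smooth muscle and pericyte, 2 of 4 tenocyte and 1 of 4 immune markers. Of the MuSC markers 7 of 10 passed in that fit, and of the Schwann cell markers 6 of 6. The immune markers Ptprc, Adgre1, Cd3e and S100a8 were not among the table's rows. The part of these cells in the values below was not tested, and in sorted bulk cells fewer cells of a type and less RNA per cell cannot be told apart.

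Drosha and Dgcr8, which make the first cut, were among the steadiest members. Drosha (ENSMUSG00000022191, mm10 chr15:12824815-12935290, plus strand) stood at 931, 962 and 931 normalized counts in control replicates 1 to 3 and at 877, 938 and 939 in Taf4asKO replicates 1 to 3. The groups overlapped, and the log2 fold change was -0.04 ± 0.09 (SE, n = 3 per group, adjusted p = 0.834 by limma), with a 95% interval from -0.24 to 0.17. Dgcr8 (ENSMUSG00000022718, chr16:18253948-18289249, minus strand) stood at 334, 350 and 297 in control and 288, 319 and 361 in Taf4asKO. The highest and the lowest value both came from the Taf4asKO libraries. Its log2 fold change was -0.02 ± 0.13 (adjusted p = 0.936), with an interval from -0.32 to 0.27, so a change as large as the 1.3-fold limit lay outside the intervals of both genes.

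The balance of the Microprocessor pair was also compared. The log2 ratio of Drosha to Dgcr8 counts was 1.53 ± 0.104 in control and 1.51 ± 0.119 in Taf4asKO (SD, n = 3 each; exact permutation test, two-sided, p = 0.9, where 0.1 is the smallest p this design allows). Trmt2a shares 825 exon bases, or 10.7% of the Dgcr8 exon length, on the opposite strand. Whether reads were counted by strand is not given in the sources used here. Reads that overlap several genes were not counted, so Dgcr8 reads in these bases would have been discarded if strand was not used. Gm49776 shares 327 exon bases (4.25%) with Dgcr8 on the same strand. Reads there would be discarded with or without strand, if the authors' annotation held that gene.

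Dgcr8 is itself a source of microRNA sequence. In GENCODE M21, the Mir1306 hairpin lies on the same strand within the Dgcr8 coding sequence, where all of its 79 bases are also Dgcr8 exon. Its mature products are shown because their hairpin is part of the mRNA of a Microprocessor subunit. They are the RefSeq entries on GRCm38.p6 chr16, minus strand, at 18284288-18284310 for the 5p arm and 18284248-18284268 for the 3p arm, with the seed, bases 2 to 8, in capitals.
mmu-miR-1306-5p: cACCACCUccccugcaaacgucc
mmu-miR-1306-3p: aCGUUGGCucugguggugaug
A library of total RNA fragments does not measure these mature forms, and reads of the hairpin cannot be told apart from Dgcr8 mRNA. Since reads that overlap several genes were not counted, reads over both may also have been discarded.

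Xpo5 (ENSMUSG00000067150, chr17:46202855-46242299, plus strand) encodes the nuclear export receptor for hairpin precursors. It stood at 751, 828 and 644 in control and 713, 770 and 708 in Taf4asKO. All 3 Taf4asKO values lay inside the control range. The log2 fold change was -0.01 ± 0.12 (adjusted p = 0.954), with an interval from -0.27 to 0.24.

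Dicer1, the cytoplasmic RNase III enzyme that turns hairpins into duplexes, was the member that rose. Dicer1 (ENSMUSG00000041415, chr12:104687742-104751952, minus strand) stood at 2069, 1756 and 1805 in control and at 2564, 2424 and 2435 in Taf4asKO. Every Taf4asKO library was above every control library, and control replicate 1 was the nearest to them. The mean went from 1877 ± 168 to 2474 ± 77.8 (SD, n = 3), 1.32-fold, and the log2 fold change was 0.40 ± 0.10 (SE, adjusted p = 0.0233 by limma). This lay just past the limit of 0.379 on the log2 scale. The call was kept without control replicate 1 and lost without any one of the other 5 libraries, with log2 fold changes of 0.36 to 0.47. Over all 18 alternatives its adjusted p by limma lay between 0.0087 and 0.0922. After each library was adjusted for the GC content and length of exons, the log2 fold change was 0.34 (adjusted p = 0.0644) and the call was also lost. It was lost too with scaling to the library total (adjusted p = 0.0676 by limma), upper-quartile scaling (0.0505) and voom (0.0703). Dicer1 has 16.8 kb of exon, which puts it among the 10% of tested genes with the longest exons, where the median log2 fold change was 0.059, against -0.181 in the 10% with the shortest.

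Tarbp2, the double-stranded RNA-binding partner of DICER1, had the lowest counts of the members. Tarbp2 (ENSMUSG00000023051, chr15:102518357-102523676, plus strand) stood at 108, 97 and 101 in control and 97, 65 and 77 in Taf4asKO. The groups met at 97, the lowest control value and the highest Taf4asKO value. The log2 fold change was -0.37 ± 0.20 (adjusted p = 0.248), with a wide interval from -0.81 to 0.07. The log2 ratio of Dicer1 to Tarbp2, chosen after the values were seen, was 4.20 ± 0.053 in control and 4.98 ± 0.248 in Taf4asKO (exact permutation test, two-sided, p = 0.1, the smallest possible). Dicer1 was higher without overlap and no Taf4asKO value of Tarbp2 exceeded a control value. The ratio therefore had to separate the groups, and its test is not separate support. Prkra, which encodes PACT, the other such partner of DICER1, stood at 169, 221 and 187 in control and 199, 191 and 185 in Taf4asKO (log2 fold change 0.00 ± 0.15, adjusted p = 0.993), with a sign that changed with the scaling.

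**Figure D2:**
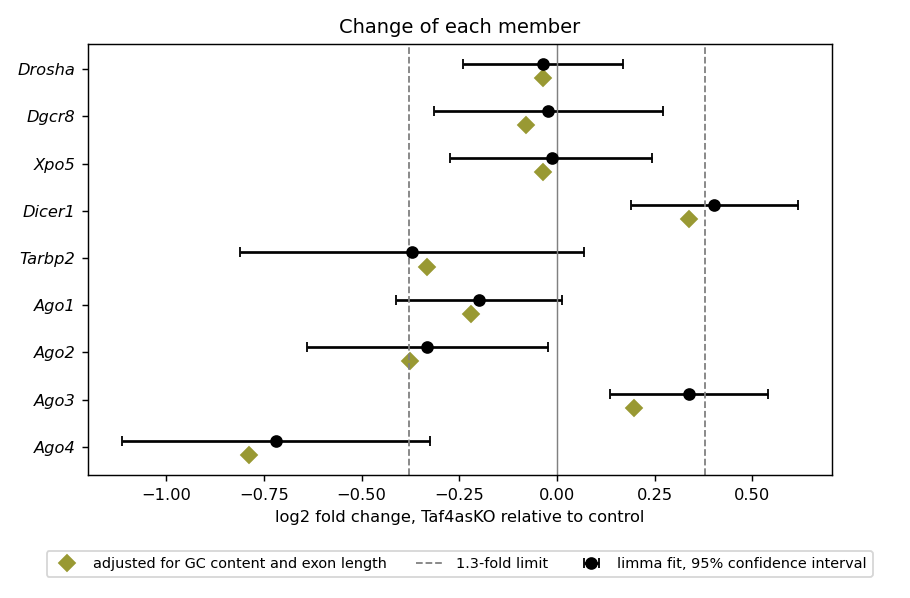
Log2 fold change of each member in Taf4asKO relative to control; black points and bars are the limma estimates with 95% confidence intervals, olive diamonds the estimates after adjustment for GC content and exon length, and dashed lines the 1.3-fold limit. Dicer1 at 0.40 and Ago4 at -0.72 lie beyond the dashed lines, and after the adjustment Dicer1 lies inside them at 0.34 and Ago4 beyond them at -0.79.

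Each of the 4 Argonaute proteins can bind microRNAs, and AGO2 is the one whose slicing of a fully matched target is best known. Their transcripts did not move together: Ago4 fell, Ago3 was higher and missed the fold limit, and Ago1 and Ago2 were lower and did not pass. Ago2 (ENSMUSG00000036698, chr15:73095844-73184840, minus strand) stood at 3536, 3381 and 2759 in control and 3080, 2356 and 2280 in Taf4asKO. The groups overlapped, since Taf4asKO replicate 1 was above control replicate 3. The log2 fold change was -0.33 ± 0.14 (adjusted p = 0.145). When replicate numbers were fitted as blocks, the same change had an adjusted p of 0.030 by limma, still under the fold limit. Chrac1 shares 219 exon bases with Ago2 on the opposite strand.

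Ago1, Ago3 and Ago4 are neighbours on chromosome 4. They lie in a row on the minus strand across 200.7 kb of mm10, in the order of transcription Ago4 (ENSMUSG00000042500, chr4:126489541-126533472), Ago1 (ENSMUSG00000041530, chr4:126435012-126468583) and Ago3 (ENSMUSG00000028842, chr4:126332732-126429556). The gap is 21.0 kb between Ago4 and Ago1 and 5.5 kb between Ago1 and Ago3.

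Ago4 fell furthest of the 9 members. It stood at 156, 162 and 192 in control and at 108, 117 and 85 in Taf4asKO. The groups were apart, and the lowest control value, 156, exceeded the highest Taf4asKO value, 117. The mean went from 170 ± 19.3 to 103.3 ± 16.5 (SD, n = 3), and the log2 fold change was -0.72 ± 0.18 (SE, adjusted p = 0.026 by limma). The change was -0.79 after the adjustment for GC content and exon length (adjusted p = 0.0186). The call was lost without control replicate 3 or without any one of the Taf4asKO libraries, with log2 fold changes of -0.82 to -0.59 over the 6 fits that left out a library. Over all 18 alternatives its adjusted p by limma lay between 0.011 and 0.122.

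Ago3 moved the other way. It stood at 996, 1062 and 983 in control and at 1329, 1248 and 1268 in Taf4asKO, without overlap. The log2 fold change was 0.34 ± 0.09 (adjusted p = 0.0368 by limma), a 1.26-fold difference that passed the limit on p but not the limit on fold, and 13.1% of all tested genes passed the limit on p alone. Without control replicate 2 the adjusted p of Ago3 by limma was 0.0186, without any one of the other 5 libraries it was 0.0792 to 0.132, and with voom it was 0.0515. Ago3 has 16.6 kb of exon and also lies among the 10% with the longest exons, and after the adjustment for GC content and exon length the change was 0.20 (adjusted p = 0.201). Ago1, between the other two, stood at 875, 946 and 906 in control and 753, 819 and 803 in Taf4asKO. All Taf4asKO libraries were below the control libraries, but the log2 fold change of -0.20 ± 0.10 did not pass (adjusted p = 0.199).

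The ratios between the neighbours, chosen after their values were seen, separated the groups. The log2 ratio of Ago3 to Ago4 counts was 2.68, 2.71 and 2.36 in control and 3.62, 3.42 and 3.90 in Taf4asKO. That of Ago3 to Ago1 was 0.187, 0.167 and 0.118 in control and 0.82, 0.61 and 0.66 in Taf4asKO, and that of Ago1 to Ago4 was 2.42 ± 0.163 and 2.95 ± 0.251 (SD). None of these 3 ratios overlapped between groups, and each had p = 0.1 in the exact permutation test (two-sided), the smallest p that 3 against 3 libraries can give. Since Ago3 was higher and Ago1 and Ago4 were lower without overlap, the ratios of Ago3 to both had to separate the groups. The ratio of Ago1 to Ago4 was not fixed in this way but was chosen from the same values. The 3 tests add no support beyond the values of the single genes. Among 18 genes within 300 kb of the Ago1 start, 16 were tested and 2 passed, Ago4 and Clspn, beside the 12.6% of all tested genes that passed, and nothing is read from that count. Clspn, named here after its value was seen, encodes a protein of the DNA replication checkpoint and fell by 1.83 on the log2 scale (adjusted p = 0.00177). It stood at 138, 150 and 96 in control and 34, 44 and 28 in Taf4asKO, and its start lies at -88.4 kb and that of Ago4 at -64.9 kb from the Ago1 start.

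**Figure D3:**
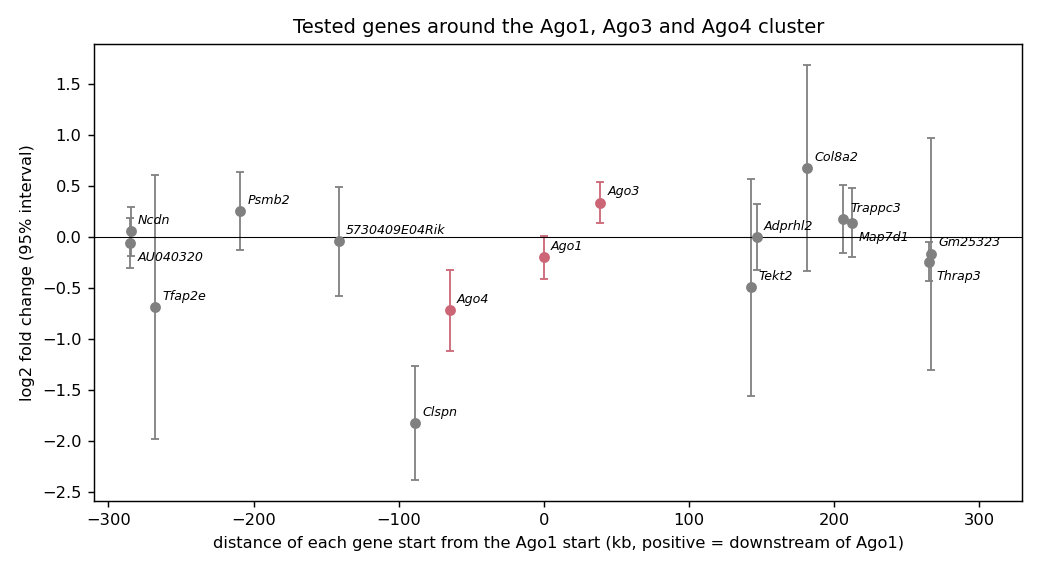
Log2 fold change with 95% confidence interval of the 16 tested genes within 300 kb of the Ago1 start, against the distance of each gene's start from that of Ago1 in kb (positive, downstream of Ago1 on its strand); red, Argonaute genes, and grey, others. Ago4 at -0.72 and Clspn at -1.83 are the genes past the threshold, and Ago1 at -0.20 lies between Ago4 and Ago3 at 0.34.

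Levels between genes were compared as normalized counts per kb of exon, with the exons of all annotated transcripts of a gene joined. On this scale Ago2 was the highest member in both groups, with 230 ± 29.3 in control and 183 ± 31.5 in Taf4asKO (SD, n = 3). Drosha followed with 159 ± 3.02 and 155 ± 5.98. In control, Dicer1 at 112 ± 10.1, Ago1 at 112 ± 4.38 and Xpo5 at 108 ± 13.5 overlapped in their ranges, and below them came Ago3 at 61.2 ± 2.56 and Dgcr8 at 42.5 ± 3.53. Ago4 at 24.5 ± 2.78 and Tarbp2 at 22.4 ± 1.22 shared the lowest place. In Taf4asKO, Dicer1 at 148 ± 4.65 overlapped with Drosha and stood apart from Xpo5 at 106 ± 5.02 and Ago1 at 97.5 ± 4.24. Ago3 at 77.3 ± 2.55 and Dgcr8 at 41.9 ± 4.76 kept their places, and Tarbp2 at 17.5 ± 3.55 overlapped with Ago4 at 14.9 ± 2.38. The log2 ratio of Dicer1 to Drosha counts, chosen after the values were seen, was 0.99 ± 0.145 in control and 1.43 ± 0.101 in Taf4asKO, without overlap (exact permutation test, two-sided, p = 0.1). The Dicer1 counts alone already separated the groups, so this test is not separate support.

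The make-up of the Argonaute transcripts was compared as shares of their summed level per kb. Ago2 made up 57.0%, 54.2% and 49.8% in control and 53.8%, 46.5% and 46.4% in Taf4asKO. These ranges overlapped (exact permutation test, two-sided, p = 0.2), while within each pair of same-numbered libraries the share was lower in Taf4asKO (exact permutation test within the 3 pairs, p = 0.25, the smallest possible). The share of Ago3 was 13.6%, 14.4% and 15.0% in control and 19.7%, 20.9% and 21.9% in Taf4asKO, and the share of Ago4 was 5.08%, 5.24% and 6.99% and 3.81%, 4.67% and 3.49%. Both separated the groups (p = 0.1 each, the same exact test), while the share of Ago1 was 26.3% ± 1.94 and 26.3% ± 3.10 (SD, exact p = 0.9). The summed level was 427 ± 28.0 and 373 ± 30.8 normalized counts per kb, overlapped between groups (exact p = 0.2) and was lower in Taf4asKO in each of the 3 pairs. The shares other than that of Ago2, and the sum, were chosen after the values were seen, and a share of one gene depends on the others. The counts of Ago3 and Ago4 already separated the groups, so the tests of their shares are not separate support.

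**Figure D4:**
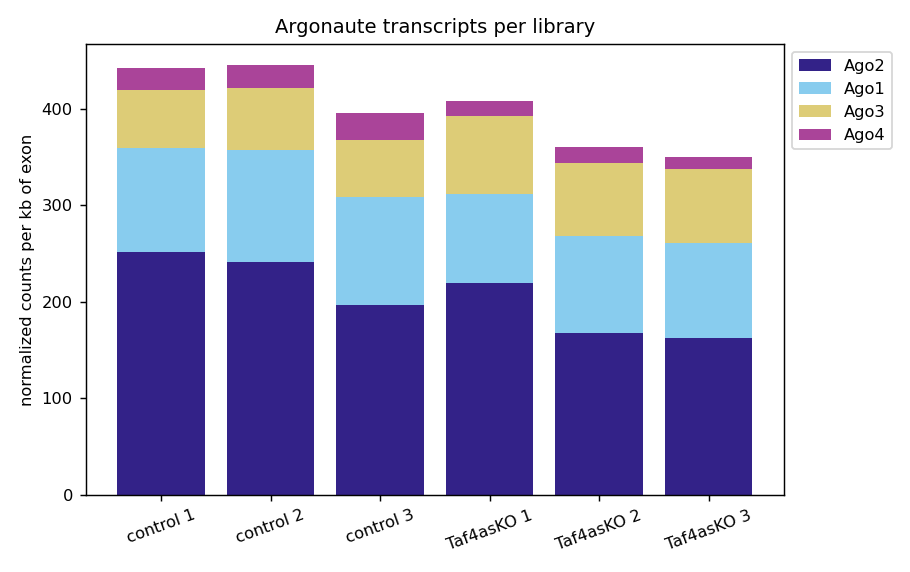
Stacked level of the 4 Argonaute transcripts in each library, in normalized counts per kb of exon, from 0. Ago2 (dark blue) is the largest segment in every library, the Ago3 segment (yellow) is taller in the 3 Taf4asKO libraries, and the Ago4 segment (purple) is the smallest in each.

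Promoter sequence was examined for the members, because TAF4 is a subunit of the general transcription factor TFIID and the study also examined NF-Y, which binds CCAAT boxes. RefSeq promoter entries (GRCm38.p6) matched 8 of the 9 members, all except Ago2, with 2 overlapping entries for Ago1. In the 250 bases before the start, CCAAT on either strand was found in 6 of these 9 entries and in 33.8% of the 32851 entries of all genes. Drosha had 3 matches, Dgcr8 4, Tarbp2 3, Dicer1 1 and Ago1 1 in each entry, while Xpo5, Ago3 and Ago4 had none. GGGCGG on either strand, the GC box, was found in 8 of the 9 entries, all but that of Drosha, and in 32.7% of all entries, and TATAAA on either strand in 0 of the 9 and 12.4% of all. Of the members past the threshold, Dicer1 held 1 CCAAT and 1 GGGCGG, and Ago4 held 0 CCAAT and 5 GGGCGG. Ago3, which missed the fold limit, held 0 and 4.

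The windows of Dicer1, Ago4 and Ago3 are shown, 5′ to 3′ on the strand of the gene, with CCAAT and GGGCGG on either strand in capitals. They are GRCm38.p6 chr12:104751953-104752202, minus strand, for Dicer1, chr4:126533459-126533708, minus strand, for Ago4, and chr4:126429543-126429792, minus strand, for Ago3. A match is a string of letters and not a measured binding site.
Dicer1: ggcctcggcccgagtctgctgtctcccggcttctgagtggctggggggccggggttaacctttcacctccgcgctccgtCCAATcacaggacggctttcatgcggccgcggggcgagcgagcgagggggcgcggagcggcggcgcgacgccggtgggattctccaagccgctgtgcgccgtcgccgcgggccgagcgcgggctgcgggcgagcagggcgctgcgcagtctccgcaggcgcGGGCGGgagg
Ago4: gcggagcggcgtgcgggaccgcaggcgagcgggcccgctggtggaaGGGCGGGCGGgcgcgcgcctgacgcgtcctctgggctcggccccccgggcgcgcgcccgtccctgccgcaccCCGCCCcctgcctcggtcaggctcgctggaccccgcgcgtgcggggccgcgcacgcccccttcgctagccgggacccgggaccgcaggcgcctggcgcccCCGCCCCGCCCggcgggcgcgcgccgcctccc
Ago3: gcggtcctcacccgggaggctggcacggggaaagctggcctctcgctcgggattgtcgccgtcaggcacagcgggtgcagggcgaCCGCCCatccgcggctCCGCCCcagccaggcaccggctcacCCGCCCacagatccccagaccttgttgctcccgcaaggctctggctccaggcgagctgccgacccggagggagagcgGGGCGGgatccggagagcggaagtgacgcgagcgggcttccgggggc
The only CCAAT of the 3 windows is centred 169 bases before the RefSeq start of Dicer1, and the 5 capitalised GC boxes of Ago4 include overlapping pairs.

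The wider pathway was described by lists of genes around the members, beside the same background of 12.6% of all tested genes. Of 18 cofactors of processing 16 were tested, and 1 rose and 2 fell, with a median log2 fold change of 0.00. Hnrnpa1, an RNA-binding protein that binds certain primary microRNAs such as that of miR-18a, fell from 2969, 2993 and 3032 to 1797, 1758 and 1726. The groups were far apart, with a log2 fold change of -0.77 ± 0.08 (adjusted p = 0.000582 by limma). Dis3l2, an exonuclease that degrades uridylated let-7 precursors, fell from 496, 521 and 490 to 338, 379 and 351 (log2 fold change -0.50 ± 0.11, adjusted p = 0.0155). Adar, which edits double-stranded RNA including microRNA precursors, rose from 258, 289 and 302 to 401, 372 and 456 (0.53 ± 0.13, adjusted p = 0.0236). Without any one of the Taf4asKO libraries 1 cofactor passed.

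The other cofactors did not pass. Ddx5 and Ddx17 encode the RNA helicases of the large Microprocessor complex. Ddx5 ranged from 11539 to 15542 in control and from 15717 to 20085 in Taf4asKO (log2 fold change 0.36 ± 0.14, adjusted p = 0.115), and Ddx17 from 4930 to 5412 and from 5559 to 5876 (0.13 ± 0.09, adjusted p = 0.354). The terminal uridylyltransferases Tut4 and Tut7, which tail let-7 precursors, differed by -0.02 ± 0.09 and 0.00 ± 0.09 on the log2 scale. Lin28b, the let-7 repressor, was at 2 to 6 normalized counts in the 6 libraries and under the filter of 5.

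Of 13 genes of Argonaute loading and turnover, 3 fell and none rose, with a median of 0.069. Hsp90ab1, an HSP90 chaperone that holds Argonaute open for loading, fell from 26235, 28506 and 23469 to 19423, 16898 and 17038 (log2 fold change -0.55 ± 0.12, adjusted p = 0.0135). Its co-chaperone Fkbp4 fell from 1686, 1685 and 1328 to 1079, 928 and 1002 (-0.64 ± 0.12, adjusted p = 0.00774). Ankrd52, a subunit of the phosphatase that resets Argonaute after target binding, fell from 1625, 1194 and 1259 to 1061, 951 and 887 (-0.48 ± 0.13, adjusted p = 0.0385). The Ankrd52 call was lost with scaling to the library total (adjusted p = 0.0869 by limma), with voom (0.0927) and after the adjustment for GC content and exon length (0.0863). None of the 3 overlapped between groups, but without Taf4asKO replicate 2 none of this list passed and without Taf4asKO replicate 3 only 1 did. Zswim8, the ubiquitin ligase of target-directed microRNA decay, did not pass (0.07 ± 0.10, adjusted p = 0.700).

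Of 32 silencing effectors, Fmr1 rose and Ajuba fell, and the other 30 did not pass, with a median of 0.098. With the replicate block 3 passed, the added one being Pan2, a deadenylase subunit named after its value was seen (log2 fold change -0.40 ± 0.13, adjusted p = 0.0651 without and 0.0291 with the block, by limma). Fmr1, the fragile X RNA-binding protein, which associates with Argonaute complexes, stood at 1224, 1103 and 1246 in control and 1688, 1538 and 1576 in Taf4asKO (log2 fold change 0.43 ± 0.10, adjusted p = 0.0174), and at 0.28 after the adjustment for GC content and exon length it was under the fold limit. The Fmr1 call was also lost with scaling to the library total (adjusted p = 0.0502 by limma) and with voom (0.0532). Ajuba, a LIM protein of P-bodies and of cell adhesion sites, stood at 378, 340 and 377 and at 265, 260 and 230 (-0.54 ± 0.12, adjusted p = 0.0188). The GW182 scaffolds that join Argonaute to the deadenylases did not pass. Tnrc6a differed by 0.10 ± 0.09, Tnrc6b by 0.31 ± 0.10 (adjusted p = 0.0693) and Tnrc6c by 0.20 ± 0.11 on the log2 scale, and Cnot1, the scaffold of the CCR4-NOT deadenylase, by -0.08 ± 0.10. Without Taf4asKO replicate 2 or 3 none of the 32 effectors passed, without control replicate 1 or Taf4asKO replicate 1 there was 1, and without control replicate 2 there were 4. Of the 3 Piwi genes, the Argonaute relatives of the germline, 2 were tested, none passed, and their sum was 37 to 69 in control and 42 to 57 in Taf4asKO.

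**Figure D5:**
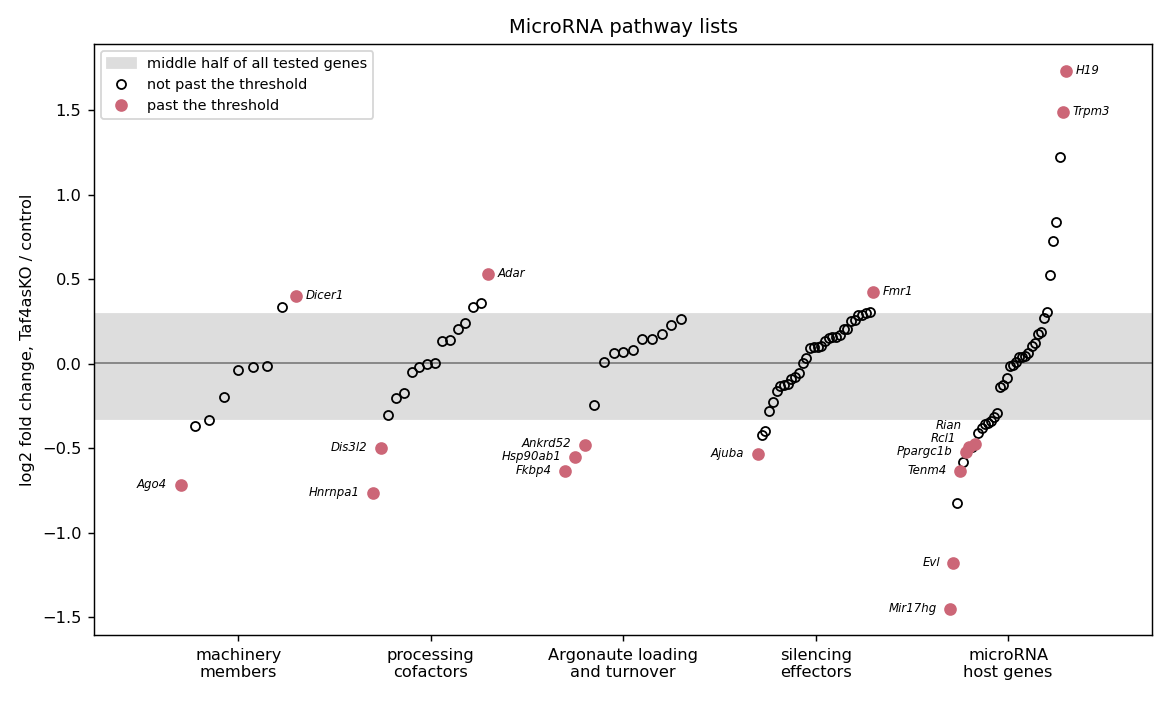
Log2 fold change of every tested gene of the members and the 4 pathway lists, each list sorted by value; filled red points passed the threshold and are named, open points did not, and the grey band and line are the middle 50% and the median of all tested genes. The members and each of the other lists have most of their points in or near the band, and the microRNA host genes span the widest range, from Mir17hg at -1.45 to H19 at 1.73.

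The primary transcripts from which the Microprocessor cuts were followed through 39 genes known to host microRNAs, of which 38 had a row and were tested. The RefSeq entries used here place a hairpin on the same strand inside at least 34 of them. Of the 38, 2 rose, 6 fell and 30 did not pass, with a median of -0.051. Without Taf4asKO replicate 1 the count past the threshold was 5, and without Taf4asKO replicate 2 or 3 it was 3. In the fit with the replicate block 14 passed, against a background of 18.1% of all tested genes. These values are of the host RNA and not of mature microRNAs, which the library does not measure.

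Mir17hg, the host of the miR-17-92 cluster, fell furthest of the hosts. Mir17hg (chr14:115042879-115046727, plus strand) stood at 117, 115 and 110 in control and at 72, 29 and 33 in Taf4asKO. The groups were apart, with a log2 fold change of -1.45 ± 0.31 (SE, adjusted p = 0.0149 by limma). It holds 6 hairpins, and 1 mature strand of each is shown with its seed in capitals, from RefSeq on GRCm38.p6.
mmu-miR-17-5p: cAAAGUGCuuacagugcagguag
mmu-miR-20a-5p: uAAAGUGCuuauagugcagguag
mmu-miR-18a-5p: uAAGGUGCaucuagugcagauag
mmu-miR-19a-3p: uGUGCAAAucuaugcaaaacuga
mmu-miR-19b-3p: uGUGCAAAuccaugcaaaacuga
mmu-miR-92a-3p: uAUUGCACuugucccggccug
miR-17-5p and miR-20a-5p share the seed AAAGUGC, and miR-19a-3p and miR-19b-3p share GUGCAAA. Mcm7, a replication helicase subunit that hosts the related miR-106b, miR-93 and miR-25, stood at 373, 536 and 431 in control and 295, 384 and 323 in Taf4asKO (log2 fold change -0.41 ± 0.16, adjusted p = 0.117). It passed with the replicate block (adjusted p = 0.0254).

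H19, an imprinted long non-coding RNA that holds miR-675, rose furthest. It stood at 805, 771 and 570 in control and at 2974, 1835 and 2393 in Taf4asKO (log2 fold change 1.73 ± 0.18, adjusted p = 0.000499). Trpm3, an ion channel gene that hosts miR-204, rose from 76, 233 and 238 to 356, 519 and 515 (1.49 ± 0.38, adjusted p = 0.0283). In both genes every Taf4asKO library was above every control library. The RefSeq 5p strand of each hairpin follows, though mature strands were not measured.
mmu-miR-675-5p: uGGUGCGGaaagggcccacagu
mmu-miR-204-5p: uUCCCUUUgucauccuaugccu

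Among the hosts that fell, Evl, an actin regulator that hosts miR-342, stood at 341, 416 and 354 in control and 176, 168 and 145 in Taf4asKO (log2 fold change -1.18 ± 0.14, adjusted p = 0.000918). Tenm4, a teneurin whose miR-708 is known from quiescent MuSCs, stood at 7610, 7338 and 7501 and at 5352, 4000 and 5243 (-0.63 ± 0.12, adjusted p = 0.00824). Neither gene overlapped between groups. Rian, an imprinted non-coding RNA of the Dlk1-Dio3 locus, fell by 0.48 on the log2 scale (adjusted p = 0.0394), Ppargc1b, a coactivator of mitochondrial genes, by 0.52 (adjusted p = 0.0278) and Rcl1, which hosts miR-101b, by 0.50 (adjusted p = 0.0499). The calls of Ppargc1b and Rcl1 were lost after the adjustment for GC content and exon length (adjusted p = 0.0669 and 0.0885 by limma). Those of Rian and Ppargc1b were lost with scaling to the library total (0.0922 and 0.0513) and with voom (0.0879 and 0.0535), and that of Rcl1 with a pseudocount of 0.1 (0.0539) and with no filter on low values (0.0517). The strands of the first pair of hosts and of Rcl1 follow.
mmu-miR-342-3p: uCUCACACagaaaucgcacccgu
mmu-miR-708-5p: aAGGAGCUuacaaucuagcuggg
mmu-miR-101b-3p: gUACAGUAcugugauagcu
Calcr, the calcitonin receptor of quiescent MuSCs and host of miR-489, did not pass. It stood at 1748, 1190 and 1826 in control and 1593, 1780 and 1538 in Taf4asKO (log2 fold change 0.07 ± 0.16, adjusted p = 0.820), and the adjustment for GC content and exon length turned its sign. Huwe1, which hosts miR-98 and a let-7f copy, did not pass either (0.18 ± 0.09, adjusted p = 0.235).

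The table also held 151 rows whose symbol is Mir with a number, of which 145 are annotated as microRNA genes. After the filter 65 were tested, and 1 was higher and 3 were lower, beside the 12.6% of all tested genes that passed. Besides Mir17hg these were Mir3064, which lies within the cofactor gene Ddx5 on the same strand, Mir1894, which lies within Ppp1r10 on the same strand, and Mir654. Mir3064 stood at 66, 48 and 51 in control and 95, 85 and 95 in Taf4asKO (log2 fold change 0.74 ± 0.20, adjusted p = 0.0401), and Mir1894 at 132, 92 and 131 and at 58, 64 and 55 (-0.97 ± 0.21, adjusted p = 0.0133). Mir654 was at 15, 7 and 9 in control and at 1, 0 and 3 in Taf4asKO. In rows this short, reads of the microRNA gene and of a surrounding transcript cannot be told apart, and the rows do not measure mature microRNAs.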

How the data were processed

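Total RNA of sorted MuSCs was sequenced in 3 control and 3 Taf4asKO libraries, grouped by their titles. Per the labels and the study's methods, single-end reads were trimmed by the authors (Trimmomatic 0.39), aligned to mm10 (STAR 2.6.0c), freed of multimapping reads, counted over exons without reads that overlap several genes (featureCounts 1.6.0) and normalized (DESeq2 1.14.1). The deposited values, called normalized counts here, are a score: counts scaled by library size factors, then rounded to whole numbers. Unused whole numbers up to 60 show this in some libraries, with 9 in control replicate 1, 7 in control replicate 2 and 4 in Taf4asKO replicate 2. Control replicate 3 and Taf4asKO replicates 1 and 3 had 0. Read depth behind the deposited values was not analysed here, so no counting interval is given.

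Genes with a mean of at least 5 were fitted with limma 3.58.1 in R 4.3.3 (intensity trend, two-sided, log2(value + 1), no covariate). The limits follow the study's methods, and the log2(value + 1) scale understates changes of low genes. A count model was not used because the values are not reads. The fit was tested on simulated data. Replicate numbers were taken from the titles, and the sources used here do not say that same-numbered libraries form pairs. They were counted as pairs because same-numbered libraries deviated together (correlations 0.235, 0.126 and 0.15, against -0.149 to 0.0141 for libraries of unlike number). The pairing was thus inferred from these same values, and deviations from a mean of 3 libraries depend on each other. The model was also fitted with replicate blocks. Other alternatives were other scalings, voom, filters, a pseudocount of 0.1, an adjusted p limit of 0.01, adjustment for GC content and exon length (GENCODE M21, splines with 5 degrees of freedom, 99.8% of gene identifiers matched) and leaving out each library. Values of single ratios were compared by exact permutation tests. Gene positions are those of the table. Of the listed genes, those named were every gene past the threshold with a mean of at least 20, up to 10 per list, and a few named by symbol: Tnrc6a, Tnrc6b, Tnrc6c, Prkra, Ddx5, Ddx17, Tut4, Tut7, Lin28b, Zswim8, Cnot1, Calcr, Tenm4, Mir17hg, Mcm7 and Huwe1. Tut4 and Tut7 were read under the older symbols Zcchc11 and Zcchc6. The members and lists were chosen with earlier results of these data known. Figures were drawn with matplotlib 3.10.9.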

Additional observations from a re-analysis of the deposited data

How the results depend on the processing

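Of 2 members past the threshold, 1 remained, Ago4, with scaling to the library total, upper-quartile scaling, limma-voom, and the GC content and exon length adjustment with or without the replicate block. At an adjusted p limit of 0.01 the count was 0, and with the replicate block and no fold limit, an alternative chosen after seeing the data, it was 4. The share of all tested genes that passed at that last setting was not worked out, so nothing is read from its count. At the limit of 0.01 the counts were 1 for cofactors, 1 for loading and turnover, 0 for silencing effectors and 3 for host genes. Silencing effectors numbered 1 with scaling to the library total, voom, or the GC content and exon length adjustment, and host genes 14 with the replicate block and 15 with it and that adjustment. The block changed no other count of the members and pathway lists by over 1.5 times. Leaving out single libraries gave 0 to 2 members, 1 to 4 cofactors, 0 to 3 loading and turnover genes, 0 to 4 effectors and 3 to 12 host genes, a member median of -0.112 to -0.004, and a Drosha to Dgcr8 difference of -0.061 to 0.053 on the log2 scale. Log2 fold changes near 0 changed sign in the same fits: Dgcr8 (-0.106 to 0.057), Xpo5 (-0.112 to 0.069), Prkra (-0.085 to 0.107), Tut4 (-0.053 to 0.018), Tut7 (-0.038 to 0.047) and Calcr (-0.129 to 0.18). Prkra also did so with upper-quartile scaling (-0.035), scaling that left out mitochondrial genes, ribosomal protein genes and the 100 genes of highest level (-0.012), voom (-0.0014) and the GC content and exon length adjustment with or without the block (-0.013 each), and Calcr under that adjustment with or without the block (-0.014 each). The cause of these differences between settings was not tested. Of 702 values of 39 named genes over 18 alternatives each, 595 kept direction and side of the threshold, 83 lost and 4 gained a call, and 20 changed sign. The deposited values give no read depth, which limits statements on low genes such as Tarbp2 and Ago4.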
